A study of Homo sapiens with 6 samples.

Results

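RAB GTPases are small membrane switches: when loaded with GTP they sit on a particular organelle and recruit the motors, tethers and fusion proteins that move vesicles. Exchange factors load them with GTP, GTPase activating proteins of the TBC family turn them off, GDI lifts the inactive form off the membrane, and escort proteins present new RABs to the enzyme that adds their lipid tails. The members described here are all genes whose symbol is RAB followed by a number and at most 1 letter. By this rule 62 of the 18665 named genes on the array were RAB genes, and 40 of them were detected often enough to be tested, among 9797 tested genes in all. RAB40AL, which ends in a pair of letters, falls outside the rule.

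All arrays hold RNA of HEK293T, an embryonic kidney cell line of human origin that expresses SV40 large T antigen. In 3 samples, labelled transfected, 4 µg of cloned hsa-miR-128 was transfected, and 3 samples were HEK293T labelled only as control. Nothing in the sources used here says whether controls received an empty plasmid, so an effect of transfection as such and of the microRNA cannot be told apart. The design text calls the arrays biological triplicates, and all 6 lay on 1 slide. A small difference in every cell and a large one in the cells that took up plasmid cannot be told apart in such bulk RNA.

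The series asked which transcripts differ after miR-128 is overexpressed. A microRNA silences messenger RNAs that pair with its seed, by decay or by blocked translation. Both human loci encode the same 3p arm, shown because it is the arm best known to be active, with its seed (bases 2 to 8) in capitals. The labels do not say which hairpin was cloned, and seed matches in RAB messenger RNAs were not analysed here. The sequence is RefSeq's on GRCh38.p14, at chr2:135665446-135665466 (plus strand) for MIR128-1 and chr3:35744527-35744547 (plus strand) for MIR128-2.
hsa-miR-128-3p: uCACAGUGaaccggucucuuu

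The arrays had mean signals between 408 and 660, and 12995 to 14345 probes were detected (detection p under 0.01). Transfected array 1 was the lowest and control 1 the highest in both measures. The first principal component over genes (52.1% of the variance) set transfected arrays 1 to 3 at -40.94, -28.57 and 0.97 and controls 1 to 3 at 13.69, 32.15 and 22.70, so transfected array 3 lay nearest the controls. Of 8 genes fixed as HEK293 markers, VIM, KRT8, KRT18, CDH2 and NEFL were detected on all 6 arrays and INA on 5, while PAX2 and NEFM were not detected. Of 8 markers of other cells, the collagen gene COL1A1 was detected on all 6 arrays and the other 7 on none. After Benjamini-Hochberg adjustment of limma's p-values, 0 of the 9797 genes (0.0%) passed at 0.05, although 2795 had an unadjusted p under 0.05.

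The tested RAB genes split almost evenly. Relative to controls, 19 were higher (47.9% of all tested genes were) and 21 lower in transfected cells, with a median log2 fold change of -0.03, the same as for all genes tested (-0.03). Single members nevertheless differed by up to a log2 change of 1.24 upward (RAB33B) and -1.16 downward (RAB26). None of them passed after adjustment. Of the 40, 13 (32.5%) had an unadjusted p under 0.05, as had 28.5% of all tested genes. RAB21, RAB22A, RAB33B, RAB18 and RAB9A were the 5 higher members (12.4% of all genes were called in that direction). RAB5B, RAB5C, RAB9B, RAB13, RAB26, RAB35, RAB40C and RAB43 were the 8 lower ones (16.1% of all genes). The members' share lay close to that of all genes in each direction.

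The count turned on single arrays. It was 20 of 40 without transfected array 3, when 3711 of all genes stood at that level, and 8 of 40 without control 2, when 1539 did. After adjustment, 9 RAB genes and 1531 of all genes passed without transfected array 3, and 2 RAB genes and 493 of all genes without transfected array 1. With arrays scaled to equal medians, a setting that lowers the median of all genes to -0.33, the split at an unadjusted p under 0.05 was 1 higher and 11 lower RAB genes, and 133 higher and 2247 lower among all genes. Under that scaling 12 RAB genes were higher and 28 lower than in controls, and 19 of the 40 lay above the median gene, against 20 in the quantile-normalized values.

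**Figure D1:**
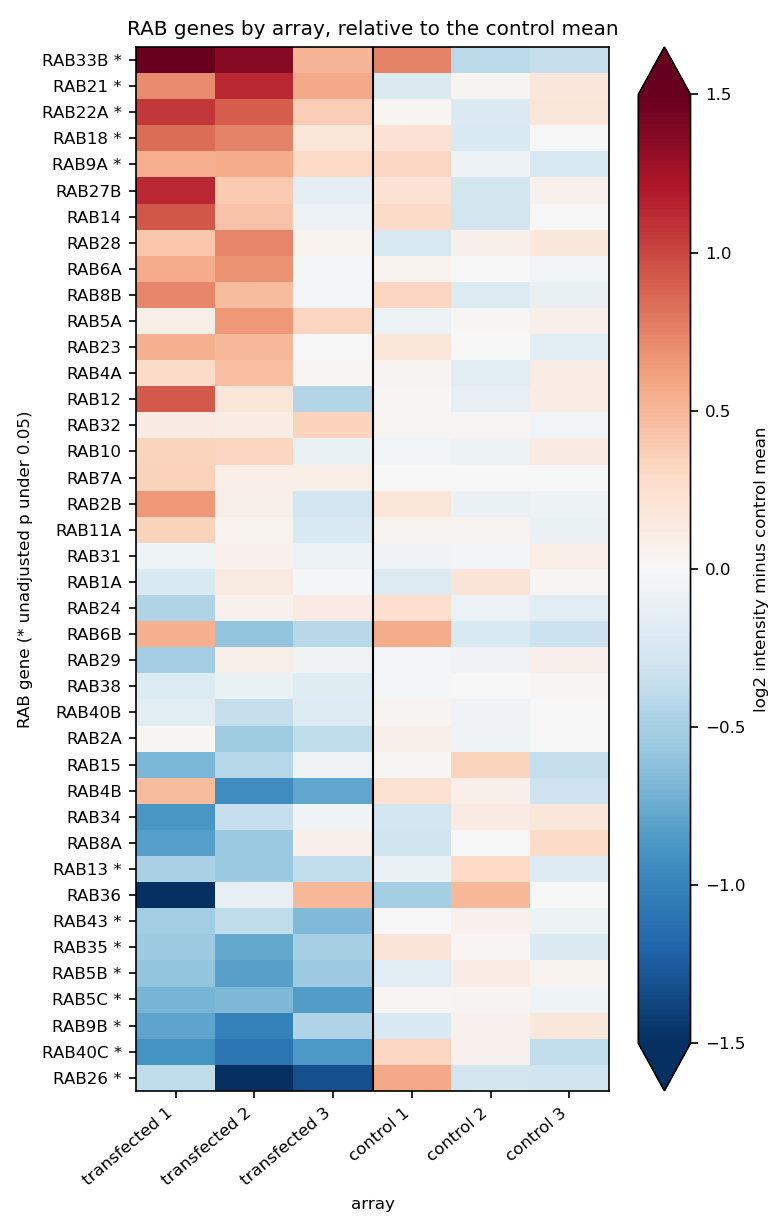
Normalized log2 intensity of the 40 tested RAB genes (rows, ordered by fold change) on the 3 transfected and 3 control arrays (columns), each minus its gene's mean over controls; the colour scale saturates at 1.5 in either direction. The genes at the top are red on transfected arrays 1 and 2 and paler on transfected array 3, and those at the bottom are blue on the transfected arrays.

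Transfected array 3 was the nearest of its group to the controls for all 5 of the higher members and for 5 of the 8 lower ones. The spread between transfected arrays exceeded that between controls for 32 of the 40 RAB genes (80.0%) and for 68.1% of all tested genes. The median standard deviation of the RAB genes was 0.30 among transfected arrays and 0.20 among controls. The standard error over beads reached 4.41% to 6.49% of the signal for these probes.

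The groups did not overlap for 15 of the 40 RAB genes (37.5%), against 32.8% of all tested genes. Of these, 5 were higher (14.7% of all genes) and 10 lower (18.1% of all genes). They include 5 genes that missed an unadjusted p of 0.05: RAB5A, RAB7A and RAB32 among the higher and RAB38 and RAB40B among the lower.

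Estimates for RABs of the early and recycling endosome differed in sign, those of the RAB5 genes among them. Of 12 tested members of this group, 6 were higher and 6 lower (median log2 fold change 0.02). RAB5A, RAB5B and RAB5C encode close paralogs that drive fusion of early endosomes. RAB5C, on the normalized log2 intensity scale used for all array values below, had 8.66, 8.69 and 8.52 on transfected arrays 1 to 3, against 9.38, 9.40 and 9.30 on controls 1 to 3. The groups were far apart and each was tight, and RAB5C was 1.67-fold lower (log2 difference -0.74 ± 0.16 SE, adjusted p = 0.0553), the smallest p of any RAB gene. Its second detected probe gave a log2 difference of -0.67, but was detected on only 2 of the transfected arrays. On that probe the groups overlapped, with transfected array 3 (7.43) level with control 2 (7.42).

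RAB5B had 11.52, 11.30 and 11.57 on the transfected arrays, against 11.95, 12.24 and 12.17 on controls. All transfected arrays lay below all controls, a 1.57-fold lower level (-0.65 ± 0.17 SE, adjusted p = 0.0733). RAB5A went the other way, with 9.21, 9.77 and 9.45 on the transfected arrays, against 9.04, 9.14 and 9.20 on controls. These groups did not overlap either, but transfected array 1 stood only just above control 3, and the log2 difference of 0.35 ± 0.19 SE had an adjusted p of 0.259 (95% interval -0.09 to 0.80).

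The RAB5 promoters are shown because these closely related paralogs had estimates of opposite sign, although the 95% interval of RAB5A ran from -0.09 to 0.80. Each sequence is RefSeq's on GRCh38.p14, from 250 bases before to 50 bases after the gene's start, with every CpG in capitals. RAB5A lies at chr3:19946847-19947146 (plus strand), RAB5B at chr12:55973699-55973998 (plus strand) and RAB5C at chr17:42154940-42155239 (minus strand).
RAB5A: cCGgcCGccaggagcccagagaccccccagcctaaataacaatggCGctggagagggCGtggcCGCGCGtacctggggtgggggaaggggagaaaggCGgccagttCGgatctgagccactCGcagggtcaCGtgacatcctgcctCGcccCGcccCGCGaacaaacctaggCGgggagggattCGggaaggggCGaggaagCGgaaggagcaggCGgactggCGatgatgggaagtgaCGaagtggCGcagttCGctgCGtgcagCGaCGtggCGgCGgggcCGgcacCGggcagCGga
RAB5B: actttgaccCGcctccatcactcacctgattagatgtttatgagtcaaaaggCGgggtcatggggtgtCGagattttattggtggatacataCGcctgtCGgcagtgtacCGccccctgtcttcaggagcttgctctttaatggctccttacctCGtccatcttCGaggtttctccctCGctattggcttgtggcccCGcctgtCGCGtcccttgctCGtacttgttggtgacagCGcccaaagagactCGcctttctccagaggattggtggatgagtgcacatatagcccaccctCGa
RAB5C: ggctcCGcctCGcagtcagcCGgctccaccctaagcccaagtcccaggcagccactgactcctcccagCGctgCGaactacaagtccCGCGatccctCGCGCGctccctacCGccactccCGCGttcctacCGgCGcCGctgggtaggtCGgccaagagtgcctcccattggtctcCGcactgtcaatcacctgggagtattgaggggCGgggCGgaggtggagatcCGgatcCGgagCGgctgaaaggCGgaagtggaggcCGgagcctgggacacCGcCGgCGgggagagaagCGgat
RAB5A and RAB5C hold 32 and 29 CpGs at 69.3% and 68.3% GC, and RAB5B holds 16 at 54.0%. The lower genes RAB5B and RAB5C thus lie at the bottom and near the top of this range.

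RAB21, which carries integrins through early endosomes, had 10.26, 10.69 and 10.13 in transfected cells, against 9.34, 9.60 and 9.73 on controls. The groups did not overlap and RAB21 was 1.75-fold higher (0.80 ± 0.21 SE, adjusted p = 0.0723). RAB22A, which acts in endosomal recycling, had 9.10, 8.96 and 8.41, against 8.08, 7.83 and 8.23. It was 1.71-fold higher without overlap (0.78 ± 0.23 SE, adjusted p = 0.0843), with transfected array 3 close to control 3.

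RAB35, of the fast recycling route and cytokinesis, had 7.70, 7.48 and 7.75 on the transfected arrays, against 8.44, 8.28 and 8.03 on controls. It was 1.52-fold lower without overlap (-0.61 ± 0.18 SE, adjusted p = 0.0902). RAB15, a RAB of endosomal recycling described mainly in neurons, had 6.48, 6.73 and 7.11, against 7.18, 7.50 and 6.80, so the groups overlapped (-0.39 ± 0.24 SE, adjusted p = 0.314).

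RAB11A, the main RAB of the recycling endosome, had 12.11, 11.83 and 11.54 on the transfected arrays, against 11.82, 11.82 and 11.67 on controls. The transfected arrays spanned the controls, and the log2 difference of 0.06 ± 0.19 SE had a 95% interval of -0.39 to 0.50. The other members of this group, RAB4A, RAB4B, RAB14 and RAB31, had log2 differences of 0.25, -0.41, 0.42 and -0.03, with overlapping groups in each. RAB4B was detected on 1 of the 3 transfected arrays and all 3 controls, and RAB14 on all 3 transfected arrays and 2 controls.

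Among RABs of the endoplasmic reticulum and Golgi, 4 of 8 tested members were higher and 4 lower (median 0.05). RAB33B, a Golgi RAB that binds the autophagy protein ATG16L1, had 10.88, 10.39 and 9.53 on the transfected arrays, against 9.77, 8.62 and 8.68 on controls. Its 2.36-fold higher mean (1.24 ± 0.40 SE, adjusted p = 0.103) was the largest upward difference in the family, yet control 1 stood above transfected array 3. With 1 array left out its log2 difference ran from 0.93 to 1.61. With slide section as covariate, entered as a linear term from A to F, it was 3.07 (adjusted p = 0.0219). Sections A to C held the controls and D to F the transfected samples, so section and group are closely tied. Values under this covariate, here and below, rest on the trend across the 3 arrays within each group.

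RAB18, which links the endoplasmic reticulum to lipid droplets, had 8.70, 8.61 and 8.05, against 8.09, 7.63 and 7.87. Again control 1 lay above transfected array 3, and the difference was 0.59 ± 0.23 SE (adjusted p = 0.140). RAB6A, of retrograde transport at the Golgi, had 10.27, 10.39 and 9.69, against 9.76, 9.71 and 9.67. Only transfected arrays 1 and 2 stood clear of the controls (0.40 ± 0.22 SE, adjusted p = 0.253). Its other detected probe gave a log2 difference of 0.72, and on that probe all transfected arrays lay above all controls.

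RAB43, of transport between the endoplasmic reticulum and Golgi, was the 1 member of this group whose transfected arrays lay wholly below controls. It had 6.51, 6.65 and 6.37, against 7.04, 7.09 and 6.96, a 1.44-fold lower level (-0.52 ± 0.17 SE, adjusted p = 0.0985). RAB1A, which drives traffic from the endoplasmic reticulum to the Golgi in every cell, had 8.44, 8.80 and 8.65, against 8.47, 8.86 and 8.68. The arrays of the groups interleaved and the difference was -0.04 ± 0.19 SE (95% interval -0.47 to 0.39). RAB2A and RAB2B, of the same early secretory route, had -0.30 and 0.15, and RAB6B, a RAB6 form best known from neurons, had -0.16. The detected probes of RAB2A disagreed, at -0.30 and 0.27, so no direction can be given for it.

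**Figure D2:**
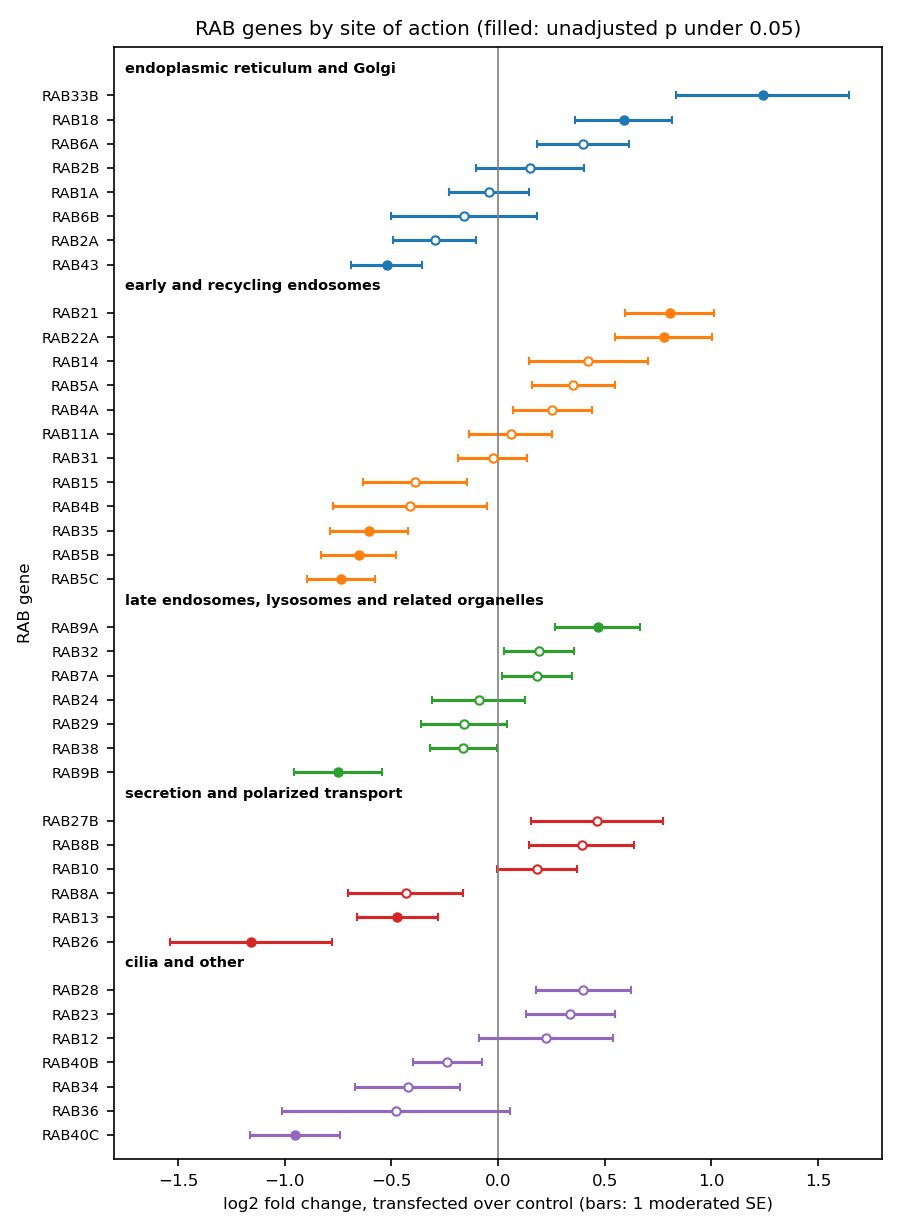
Log2 fold change, transfected over control, of the 40 tested RAB genes, grouped by the site at which each acts; points are estimates, bars 1 moderated standard error (n = 3 arrays per group), filled points have an unadjusted p under 0.05. Each site holds members on both sides of 0, from RAB33B at 1.24 to RAB26 at -1.16.

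Late endosomal and lysosomal RABs included the RAB9 paralogs, which differed in direction, and 5 genes with log2 differences no larger than 0.19. Of the 7 tested members, 3 were higher and 4 lower (median -0.09). RAB9A, which returns mannose 6-phosphate receptors to the Golgi, had 11.31, 11.32 and 11.07 on the transfected arrays, against 11.08, 10.69 and 10.53 on controls. Control 1 stood just above transfected array 3, and RAB9A was 1.38-fold higher (0.47 ± 0.20 SE, adjusted p = 0.167).

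RAB9B, its paralog, had 7.82, 7.60 and 8.16, against 8.38, 8.67 and 8.78. No arrays overlapped and RAB9B was 1.68-fold lower (-0.75 ± 0.21 SE, adjusted p = 0.0786). RAB7A, which governs fusion with lysosomes, had 12.36, 12.12 and 12.12, against 12.02, 12.02 and 12.01. All transfected arrays lay above the very tight controls, but the difference was only 0.18 ± 0.16 SE (95% interval -0.19 to 0.56), and -0.18 with arrays scaled to equal medians.

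RAB32 and RAB38, of lysosome-related organelles such as melanosomes, had 0.19 and -0.16, each without overlap, and RAB32 had -0.15 with equal medians. RAB29, which recruits the kinase LRRK2 to membranes, had -0.16, and RAB24, of autophagy, had -0.09. The 5 detected probes of RAB24 all had a negative log2 difference, from -0.56 to -0.01.

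Among RABs of secretion and polarized transport, 3 of 6 tested members were higher and 3 lower (median -0.13). RAB26, which acts in secretory granule maturation, had 8.61, 7.21 and 7.66 on the transfected arrays, against 9.56, 8.71 and 8.68 on controls. Its mean difference was the most negative of the 40, 2.23-fold lower without overlap (-1.16 ± 0.38 SE, adjusted p = 0.104), but transfected array 1 was close to controls 2 and 3. With 1 array left out the difference ran from -1.55 to -0.85, and with slide section as covariate it was 0.21.

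RAB13, of tight junction traffic, had 7.62, 7.55 and 7.74, against 8.01, 8.41 and 7.92. It was 1.39-fold lower without overlap (-0.47 ± 0.19 SE, adjusted p = 0.150). RAB8A, of exocytosis and cilium growth, had 10.85, 11.12 and 11.75, against 11.37, 11.68 and 11.97, where transfected array 3 lay among the controls (-0.43 ± 0.27 SE, adjusted p = 0.309). With slide section, which is closely tied to group, as covariate RAB8A had -1.56 (adjusted p = 0.0306). RAB8B, RAB10 and RAB27B, which also serve exocytosis, had 0.39, 0.18 and 0.46, all with overlapping groups.

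The remaining tested members act at cilia or have other roles, 3 higher and 4 lower (median -0.24). RAB40C, which carries a SOCS box and joins a cullin ubiquitin ligase, had 9.94, 9.74 and 9.98 on the transfected arrays, against 11.14, 10.90 and 10.47 on controls. The transfected arrays were tight and all below the controls, which were uneven, with control 1 highest. RAB40C was 1.94-fold lower (-0.95 ± 0.21 SE, adjusted p = 0.0558), and with 1 array left out the log2 difference ran from -1.14 to -0.80. RAB40B, its paralog, differed by -0.24 ± 0.16 SE without overlap.

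RAB34, needed for cilium formation, had 9.14, 9.66 and 9.96, against 9.72, 10.13 and 10.18, so transfected array 3 overlapped the controls (-0.42 ± 0.25 SE, adjusted p = 0.286). With slide section, which is closely tied to group, as covariate RAB34 had -1.38 (adjusted p = 0.0389). RAB28, of cilia and photoreceptors, had 8.07, 8.38 and 7.71, against 7.41, 7.73 and 7.82, again with transfected array 3 inside the control range (0.40 ± 0.22 SE, adjusted p = 0.265). RAB23, an inhibitor of hedgehog signalling, RAB12, of receptor degradation, and RAB36 had 0.34, 0.23 and -0.48. The other detected probes of RAB23 and RAB28 gave 0.57 and 0.17, the latter detected on 2 of the transfected arrays. RAB36 was called present on 2 transfected and 3 control arrays, and its sign turned without transfected array 1 (0.19), while with slide section as covariate it had -2.59 (adjusted p = 0.0415).

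Paralogs that share a number did not always have the same sign. Among 9 such pairs with both members tested, 7 had log2 fold changes of opposite sign. Of these 7 pairs, only RAB9A and RAB9B both had an unadjusted p under 0.05. Among all tested genes 47.9% were higher, so pairs of unrelated genes also often have opposite signs. The share among other gene pairs was not computed. RAB2B (-0.16) and RAB4A (-0.055) took the negative sign of their paralogs when arrays were scaled to equal medians, and the probes of RAB2A disagreed. With slide section as covariate the sign also turned for RAB2A, RAB4B and RAB6B. The difference between paralogs was tested within arrays by an exact permutation test over the 6 arrays, two-sided, which with 3 against 3 cannot go below p = 0.1. For 4 pairs it reached that limit, which becomes 0.225 after Benjamini-Hochberg adjustment over the 9 pairs. A pair could not pass 0.05 in this design, so the test cannot tell differing pairs from others. These 4 were RAB9A against RAB9B, whose log2 fold changes differed by 1.22, RAB5A against RAB5C (1.09), RAB5A against RAB5B (1.01) and RAB40B against RAB40C (0.71). RAB5B and RAB5C differed by 0.08 (exact permutation p = 0.6). For RAB8A against RAB8B the difference was -0.83 (exact permutation p = 0.2). The pairs that share RAB5 members are not independent, and probe sequences were not used here, so cross-hybridization between paralogs was not tested.

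**Figure D3:**
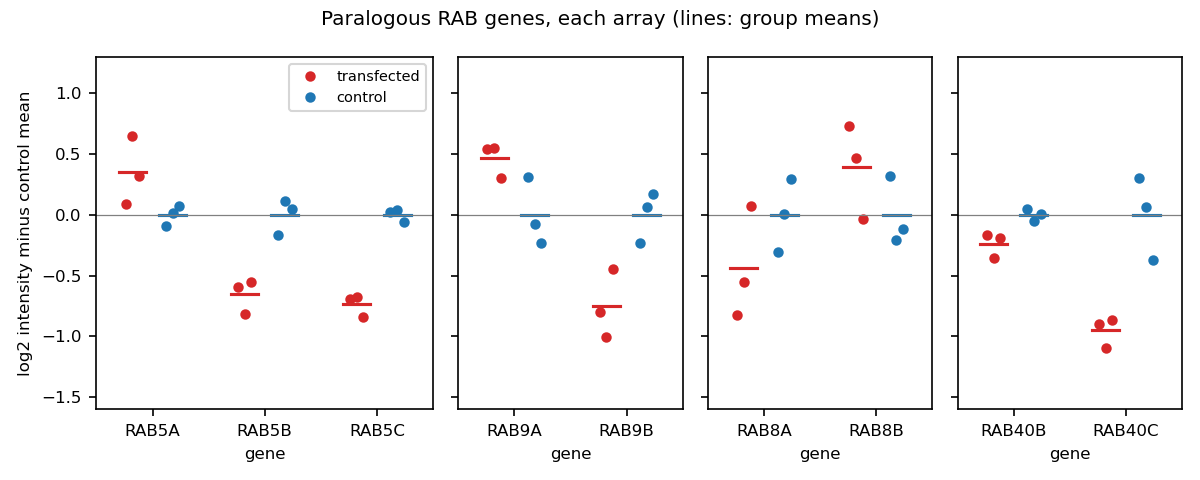
Normalized log2 intensity of paralogous RAB genes on each array, minus the gene's control mean; points are arrays (red transfected, blue control) and lines are group means. RAB5A and RAB9A sit above 0 in transfected cells and RAB5B, RAB5C and RAB9B below it, while RAB40B and RAB40C both lie below, RAB40C further.

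Longer genes tended to have the higher fold changes, among RAB genes as among all genes. Across the 40 tested RAB genes the Spearman correlation of log2 fold change with genomic span was 0.34, and across 9792 tested genes with a span it was 0.29. Genes are not independent replicates, and all points come from the same 6 arrays. The 5 higher members spanned 21.4 to 57.8 kb (median 38.2), and the 8 lower members 6.02 to 55.9 kb (median 26.4), so the ranges overlapped widely. The 5 shortest members, RAB24, RAB34, RAB26, RAB29 and RAB13 (2.52 to 9.06 kb), were all lower. Of these only RAB26 and RAB13 had an unadjusted p under 0.05, and RAB24 and RAB29 changed sign with array weights. RAB32, at 11.1 kb, was higher, and RAB40C, at 39.9 kb, was lower. The share of lower genes among all short genes was not computed. The part of gene span in these differences was not tested.

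**Figure D4:**
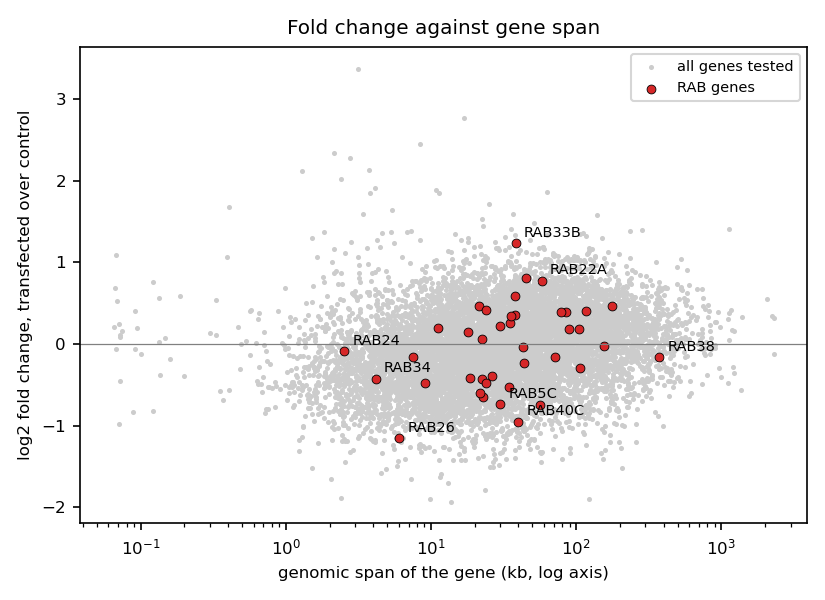
Log2 fold change (transfected over control) against the genomic span of the gene in kb on a log axis, for all tested genes (grey) and the tested RAB genes (red). RAB genes lie within the cloud of all genes, and the short RAB24, RAB34 and RAB26 are all below 0.

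Promoter sequence was available for 32 of the 40 tested RAB genes. The Spearman correlation of fold change with promoter GC content was -0.06 over these 32 and -0.12 over 8131 tested genes. The letters GGGCGG, the core of the SP1 box, occur on either strand in 29 of the 32, in 70.7% of the tested genes' promoters and in 44.6% of all 27305 promoters of that length. The E-box CACGTG, a palindrome, occurs in 6 (RAB4A, RAB5A, RAB21, RAB24, RAB29 and RAB31), in 10.7% of the tested genes' promoters and in 7.43% of all. TATAAA was found in none of the 32 and in 5.66% of the tested genes' promoters.

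The remaining 22 RAB genes did not pass the filter, which asked for detection on 3 or more arrays. Of these, 19 were detected on no array by any probe: RAB1B, RAB3A, RAB3B, RAB3C, RAB3D, RAB6C, RAB6D, RAB7B, RAB11B, RAB19, RAB20, RAB25, RAB33A, RAB37, RAB39A, RAB39B, RAB40A, RAB41 and RAB42. They include all 4 RAB3 genes, which release synaptic and endocrine vesicles, and RAB25, an epithelial RAB11 relative. RAB1B and RAB11B had 1 probe each, and a dim probe does not show that a gene is silent. RAB17 was detected on none of the transfected arrays and 2 controls, RAB27A on none and 1, and RAB30 on 1 and 1. Apart from RAB27A (4 probes), RAB37 (5) and RAB3C (2), each of the 22 had a single probe.

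The genes that load, switch and lipidate RABs also lay on both sides of 0, and none passed after adjustment. Of the 8 genes on the prenylation and GDI list, 6 were on the array and 5 were tested, 4 higher and 1 lower. Of these 5, 3 had an unadjusted p under 0.05, against 28.5% of all tested genes. A list of 5 genes is too short to compare its share with that of all genes. CHML, an escort protein for newly made RABs, had 8.83, 8.41 and 7.89 in transfected cells, against 7.58, 7.43 and 7.27 on controls. It was 1.93-fold higher without overlap (0.95 ± 0.25 SE, adjusted p = 0.0726). RABGGTB, the catalytic subunit of RAB geranylgeranyl transferase, had 12.72, 12.53 and 12.48, against 12.11, 11.89 and 12.08, a 1.47-fold higher level without overlap (0.55 ± 0.17 SE, adjusted p = 0.0913).

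RABAC1, a prenylated RAB acceptor that can help release RABs from GDI, had 7.81, 8.04 and 8.69, against 9.16, 8.96 and 8.93. All transfected arrays were below controls (-0.83 ± 0.24 SE, 1.78-fold lower, adjusted p = 0.0847). GDI2, which extracts RABs from membranes, differed by 0.03 ± 0.19 SE, and RABIF by 0.02 ± 0.33 SE.

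Of 37 tested exchange factors, 18 were higher and 19 lower (median -0.02), and 5 and 8 had an unadjusted p under 0.05. Together these were 35.1% of the list, against 28.5% of all tested genes. The 4 with the smallest p were all lower. SBF1, a DENN domain protein, had 7.70, 7.29 and 8.08 on the transfected arrays, against 9.33, 9.22 and 8.53 on controls (2.52-fold lower, -1.34 ± 0.28 SE, adjusted p = 0.0527). TRAPPC1 and TRAPPC5, subunits of the TRAPP complexes that load RAB1, differed by -0.85 ± 0.17 SE and -0.73 ± 0.21 SE (adjusted p = 0.0514 and 0.0820), and DENND2A by -0.91 ± 0.27 SE (adjusted p = 0.0880).

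Of 25 tested GTPase activating proteins, 12 were higher and 13 lower (median -0.03), with 2 and 7 at an unadjusted p under 0.05. Together these made 36.0% of the list, against 28.5% of all tested genes. TBC1D24, mutated in epilepsies, had 6.80, 6.22 and 6.52 on the transfected arrays, against 7.56, 7.66 and 7.49 on controls. It was 2.08-fold lower without overlap, and its adjusted p of 0.0502 was the lowest of all genes tested, shared by 138. SGSM2, SGSM3 and TBC1D10B differed by -1.06 ± 0.24, -0.77 ± 0.19 and -0.72 ± 0.21 SE (adjusted p = 0.0558, 0.0642 and 0.0850).

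Of 38 tested effectors, 18 were higher and 20 lower (median -0.03), with 3 and 6 at an unadjusted p under 0.05. Together these came to 23.7% of the list, against 28.5% of all tested genes. OPTN, an autophagy receptor that binds RAB8, was 1.91-fold higher without overlap (0.93 ± 0.23 SE, adjusted p = 0.0661). PLEKHM1, a RAB7 effector at lysosomes, differed by -1.09 ± 0.27 SE (adjusted p = 0.0677), and its probe was called present on 2 transfected and 3 control arrays. KIF20A, a mitotic kinesin that binds RAB6, and MICALL1, of recycling tubules, differed by -0.70 ± 0.18 and -0.51 ± 0.17 SE (adjusted p = 0.0691 and 0.104).

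Among other small GTPases, an unadjusted p under 0.05 was found for 4 of 14 ARF, ARL and SAR genes (28.6%) and 3 of 13 RAS, RAP and RAL genes (23.1%), against 32.5% of the RAB genes. Median log2 fold changes were 0.01 and 0.23 in these families, and -0.03 among RAB genes, against -0.03 over all tested genes. Of the ARF, ARL and SAR genes, ARL14 differed by 2.12 ± 0.42 SE (adjusted p = 0.0514), more than any RAB gene. It had 9.07, 9.02 and 8.83 on the transfected arrays, against uneven controls at 7.99, 6.36 and 6.21. ARF1, SAR1A and ARL2 differed by -0.70 ± 0.23, 0.51 ± 0.20 and -0.54 ± 0.22 SE (adjusted p = 0.102, 0.144 and 0.151). Differences between families were not tested.

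**Figure D5:**
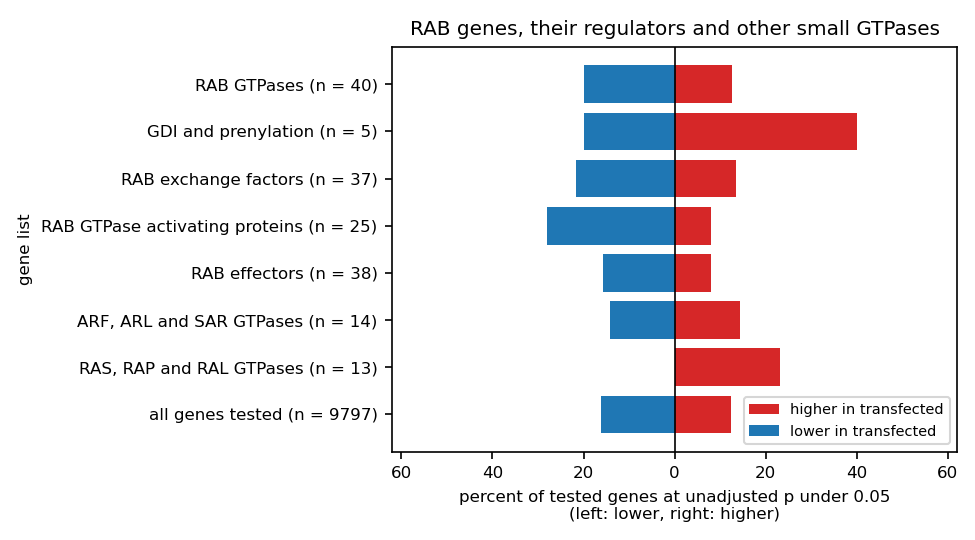
Percent of tested genes at an unadjusted p under 0.05, higher (red, right of 0) and lower (blue, left of 0) in transfected cells, for RAB genes, the lists of their regulators, other small GTPase families and all tested genes; n is the number tested. RAB genes (5 higher and 8 lower of 40) lie close to all genes (12.4% and 16.1%).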

How the data were processed

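HEK293T RNA from 3 transfected and 3 control samples was hybridized to Illumina BeadChips. Per the file headers, the non-normalized table the authors deposited gives for each probe and array a mean signal intensity with its standard error, a bead count and a detection p-value. The authors' processed intensities, in another deposited table, followed the same array's signal nearly linearly (Pearson r at least 0.999997), uncentred and on a linear scale, with medians of 9.47 to 15.5. Their means were 419.9 to 420.0 on every array and 26.5% to 28.1% of values lay below 0, so background had been subtracted and arrays brought to a common mean. The submitters' processing notes name BeadStudio and give no setting.

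With limma 3.58.1 in R 4.3.3, the deposited intensities went through normexp correction based on detection p-values (offset 16), quantile normalization and log2 transformation. Of 48803 probes, 27578 had 1 gene by the platform annotation, checked by gene identifier against RefSeq symbols, 13 had several and 21212 were unnamed here. A probe was kept if detected (p under 0.01) on 3 or more arrays, which left 14200, and each gene was represented by its brightest kept probe. Of the RAB genes, 6 had several kept probes, and in 1 of them the probes differed in sign. Levels of different probes were not compared. Groups were compared with lmFit and eBayes, two-sided, adjusted by Benjamini-Hochberg over 9797 genes, and the fit was tested on simulated data. With 3 arrays per group, the number of arrays limits the precision. Where no separate cultures are named, p-values measure only the spread between these arrays.

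The members and lists were chosen with earlier results of these data known. Array values are given for RAB genes with an unadjusted p under 0.05, the 3 next in each direction, and, whatever their values, RAB1A, RAB5A, RAB5B, RAB5C, RAB7A and RAB11A. RAB1B and RAB11B were on that list too, but were detected on no array. Of the exchange factors, GTPase activating proteins, effectors and ARF, ARL and SAR genes, the 4 with the smallest p were named, besides the prenylation and GDI genes. RAS, RAP and RAL genes were only counted. Replicate numbers follow deposit order and pair no arrays. Alternatives changed background correction, normalization, filter, probe choice and model, or left out each array. Slide section was entered as a linear term and is closely tied to group. Some items are not reported here.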

Additional observations from a re-analysis of the deposited data

How the results depend on the processing

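No paired analysis was possible because the labels number no replicates. RAB genes at an unadjusted p under 0.05 (13) numbered 26 (65.0%) with array weights, when all such genes numbered 5667 (57.8%). With the slide section as covariate they numbered 17 (42.5%), 12 higher and 5 lower. All such genes then numbered 3189 (32.6%), 1408 higher and 1781 lower. With 1 array left out RAB genes numbered 8 (without control 2) to 20 (without transfected array 3). All such genes numbered 1538 without transfected array 2, 1539 without control 2 and up to 3711. RAB genes past the adjusted test (0) numbered 4 without background correction (RAB5B, RAB5C, RAB21 and RAB40C), 2 with an offset of 50, 1 with cyclic loess (RAB5C), 2 with equal medians, 2 among genes detected on all 6 arrays, 26 with array weights, 2 with a trended robust fit, 4 with the slide section as covariate (RAB8A -1.56, RAB33B 3.07, RAB34 -1.38 and RAB36 -2.59), and 0 to 9 with 1 array left out (RAB5B, RAB5C, RAB6A, RAB9B, RAB18, RAB21, RAB22A, RAB33B and RAB40C without transfected array 3). All genes past it (0) numbered 464, 387, 273, 375, 328, 5002, 339 and 1108 under the same 8 settings, 1 in the authors' processed values, and 0 to 1531 with 1 array left out. RAB40C passed under 8 of 17 alternatives, RAB5C under 6 and RAB5B under 4. The RAB median log2 fold change (-0.03) was -0.37 with equal medians, 0.14 with the slide section as covariate and -0.013 to 0.061 with 1 array left out. Of 40 RAB genes, 24 kept their sign under all alternatives, and 28 under all but equal medians, which lowered the median of all genes to -0.33. With equal medians the sign turned for RAB2B (-0.16), RAB4A (-0.055), RAB7A (-0.18), RAB10 (-0.15), RAB11A (-0.30), RAB12 (-0.093) and RAB32 (-0.15). With the slide section as covariate 23 RAB genes had differences over 1.5 times larger and 4 over 1.5 times smaller, and the sign turned for RAB2A (0.064), RAB4B (0.93), RAB6B (1.21) and RAB26 (0.21), and with array weights for RAB1A (0.00904), RAB24 (0.12), RAB29 (0.024) and RAB31 (0.027). With 1 array left out the ranges that crossed 0 were -0.14 to 0.055 for RAB1A, -0.10 to 0.37 for RAB2B, -0.50 to 0.12 for RAB6B, -0.084 to 0.20 for RAB11A, -0.12 to 0.56 for RAB12, -0.20 to 0.091 for RAB24, -0.29 to 0.020 for RAB29, -0.072 to 0.023 for RAB31 and -0.96 to 0.19 for RAB36. The cause of these turns was not tested.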
